A study of Mus musculus with 8 samples.

Results

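The endocannabinoid genes examined here were the cannabinoid receptors Cnr1 and Cnr2 and the main enzymes that make and break their lipid ligands, Napepld, Faah, Dagla, Daglb, Mgll, Abhd6 and Abhd12. Every non-control probe that carried one of these symbols in the scanner files was taken, which gave 15 of the 55681 probes on the array for 9 genes. Of the 15, 14 exceeded background well on each of the 8 arrays and were among the 34098 probes tested. RNA came from the medial prefrontal cortex (mPFC) of adult male mice of the inbred strain C3H/HeN, and each animal had its own single-colour Agilent array. The MS group held 4 mice that had undergone maternal separation on each day from postnatal day 2 to 14, during which their dams received unpredictable stressors. The control group held 4 mice whose litters stayed undisturbed. All were weaned at postnatal day 21, were later tested for lever pressing for a milk reward and were fasted before they were killed. Whole dissected tissue was used, so a change in RNA per cell and a change in the number of cells of a type cannot be told apart. The comparison asks whether early adversity left a difference in the RNA of these genes in the adult mPFC.

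The endocannabinoid system works backwards across the synapse. A strongly driven postsynaptic neuron makes 2-arachidonoylglycerol (2-AG) from diacylglycerol, the lipid crosses to the presynaptic terminal, and there it acts on CB1, the receptor encoded by Cnr1, which lowers transmitter release. In the cortex, CB1 is densest on the terminals of cholecystokinin interneurons and is also present on those of glutamatergic neurons. Anandamide, the other main ligand, is released from a membrane phospholipid by the enzyme of Napepld and broken down by fatty acid amide hydrolase. The system is known for its part in stress responses and in food reward.

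Control 8.4, the control mouse numbered 8.4 in its label, stood apart from the other animals. The correlation of its array with the other 7 had a median of 0.987, where the other arrays had medians between 0.993 and 0.995. Markers of striatal projection neurons (11 of 12 tested) were 1.24 log2 above the 8-animal mean in this mouse and between -0.29 and -0.06 in the others. Markers of olfactory bulb neurons (11 of 12 tested) were 2.16 above the mean in Control 8.4, 1.09 above it in MS 7.6 and 0.68 above it in Control 8.5, and the other 5 animals ran from -0.91 to -0.63. Markers of cortical excitatory neurons, all 10 of which were tested, were lowest in Control 8.4 at -0.43, against -0.02 to 0.22 elsewhere. Fold changes of the members and of the other pathway genes are also given without this animal where that turned their sign or moved them by over 1.5 times. All levels are log2 processed signals with the 75th percentile of their array set to 0, and that percentile ranged from 588 to 892 signal units, and levels of different probes are not compared. Control values are given in the order 6.2, 8.2, 8.4 and 8.5, and MS values in the order 5.3, 7.1, 7.2 and 7.6.

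A single probe measured Cnr2, Napepld, Dagla, Daglb and Abhd12, whereas Cnr1, Faah and Abhd6 each had 2 probes and Mgll had 4. The stretches below are shown because the Mgll probes are assigned to different transcripts and the Cnr2 probe shares bases with other genes. Whether a probe reads only the transcript it is assigned to was not worked out. They are 30 of the 60 bases of each probe, written 5′ to 3′ as given in the scanner files, bases 1 to 30 for Mgll and bases 31 to 60 for Cnr2. The coordinates are those of the whole probe on build mm9. Both Mgll probes lie on the plus strand of chromosome 6, the first at chr6:88778292-88778351 for transcript NM_001166251 and the other 63.7 kb upstream, at chr6:88714636-88714695, for transcript NM_001166250. The Cnr2 probe lies on the plus strand at chr4:135476052-135476111, and capitals mark the 16 bases that recur most often in promoters of other genes.
Mgll A_55_P2063316: aattactaaagaagccaatgtgcactacag
Mgll A_55_P2063312: tatgatgagctggctcatatgttgaagggg
Cnr2 A_55_P2146535: ggtgtactCATATACATAAAATAAgtaaat

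The Cnr2 probe shared a run of at least 16 bases, on either strand, with the 300-base promoter windows (RefSeq, GRCm38.p6) of 15 of 27025 genes other than Cnr2, and with 3 probes for other transcripts, with a longest run of 23 bases. The run in capitals was in 9 of the 15. As many other promoters were matched by 1.24% of all probes on the array, and at least 1 by 29.1%. Among the other 14 member probes, 10 had no such match and 4 matched 1 other gene. One of these, the second Abhd6 probe A_55_P2029366, lay whole on the opposite strand within the window of the long non-coding RNA gene Gm41094, across its start. This Abhd6 probe also shared a run of 52 bases, counted on either strand, with 1 probe for another gene. Whether the Cnr2 probe also read RNA that carries this repeated stretch was not tested.

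No difference between MS and control mPFC was detected for any of these genes. No probe of any member passed an adjusted p of 0.05 in limma with Benjamini-Hochberg adjustment over all 34098 probes, where 0% of all probes did so. At an unadjusted p under 0.05 the count was also 0 of 14, beside 2.39% of all tested probes (815), and the smallest unadjusted limma p of a member was 0.117. The 4 MS values lay apart from the 4 control values for 0 of the 14 probes, beside 1.43% of all tested probes. The log2 fold change (MS minus control) was positive at 10 probes and negative at 4, with a median of 0.08, beside 0.01 over all tested probes. This member median was 0.030 without Control 8.4 and 0.14 without Control 8.2, and 0.037 in the log2 table of the authors. Each of the 14 95% confidence intervals contained 0, and none reached a 2-fold change either way. For 13 of the 14 the interval lay within 1.5-fold, and the exception was the Mgll probe A_55_P2063312. The SD within groups had a median of 0.19 log2 over the member probes and 0.17 over all tested probes, and member probes fell between percentiles 18.1 and 84.6 of that spread.

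**Figure D1:**
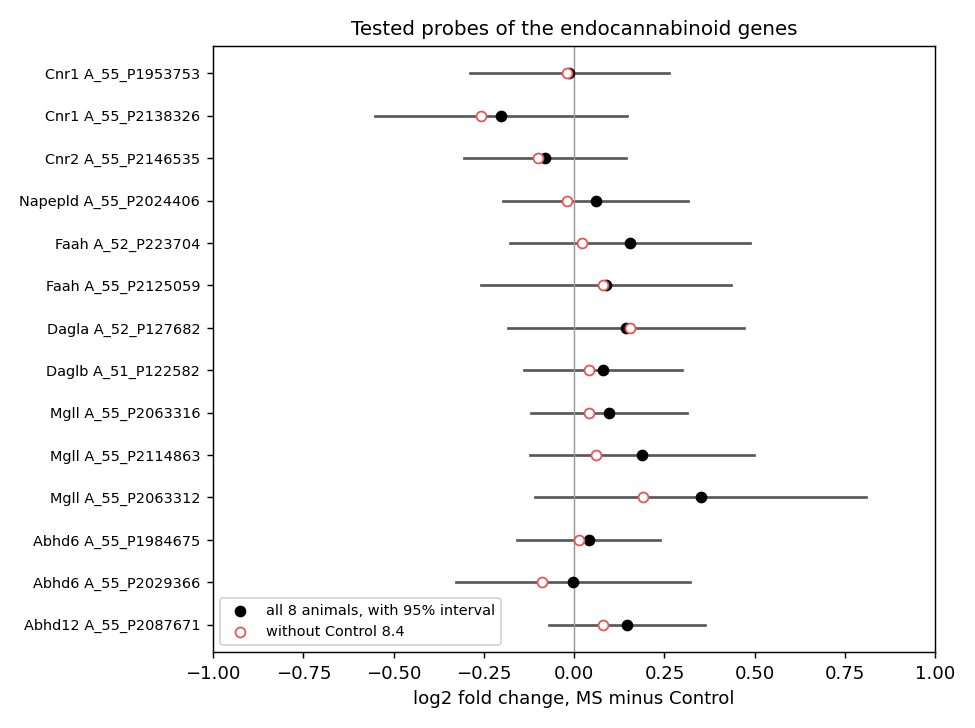
Log2 fold change (MS minus control, x axis) of the 14 tested probes (y axis), as filled points with 95% confidence intervals from limma over 4 control and 4 MS animals, and as open points without Control 8.4. Every interval crosses 0, and 9 of the 14 points move towards 0 without Control 8.4.

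Cnr1, which encodes the main cannabinoid receptor of the brain, had group means 0.01 log2 apart. At its brightest probe (A_55_P1953753, chr4:34035526-34035585, plus strand, transcript NM_007726) the levels were 4.62, 4.71, 4.50 and 4.27 in control animals against 4.60, 4.49, 4.67 and 4.29 in MS mice. The lowest animals were Control 8.5 and MS 7.6, 1 of each group, and the ranges overlapped almost completely. The means were 4.53 ± 0.19 and 4.51 ± 0.16 (SD, n = 4 each), so that the log2 fold change was -0.01 (standard error 0.12, 95% interval -0.29 to 0.26). As a ratio of MS over control this was 0.991, with an interval from 0.819 to 1.20. Without Control 8.4 the log2 fold change was -0.020. In the slide row with the first 4 arrays the difference was 0.10 and in the other row -0.13, with 2 animals per group in each, so its direction was not the same in both.

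The second Cnr1 probe (A_55_P2138326) lies 13.3 kb upstream on the same strand and is assigned to the Ensembl transcript ENSMUST00000133462. Its levels were 0.43, 0.36, 0.15 and 0.34 in control animals against 0.55, -0.01, 0.11 and -0.19 in MS mice. The MS mice included both the highest animal, MS 5.3, and the lowest, MS 7.6, and 3 of the 4 lay below every control. The difference of the group means was -0.20 log2 (95% interval -0.55 to 0.15). Without MS 5.3 it was -0.35 with an unadjusted limma p of 0.0141 and an adjusted p of 0.995.

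Cnr2 encodes CB2, the receptor best known from B cells, macrophages and microglia. Its levels were 1.72, 1.41, 1.55 and 1.77 in control animals against 1.43, 1.59, 1.49 and 1.60 in MS mice. The MS values lay wholly inside the control range. MS minus control was -0.08 log2 (95% interval -0.30 to 0.14), with -0.23 in the first slide row and 0.07 in the other. Of 10 microglial markers, among them Cx3cr1, P2ry12 and Tmem119, all were tested, with a mean score between -0.08 and 0.05 in all animals. Of 8 leukocyte markers, 4 were tested, and the B cell genes Ms4a1 and Cd79b were not well above background in all animals of either group, while Cd79a, another B cell gene, was tested, with a log2 fold change of 0.08. Cnr2 was highest in Control 8.5 and Control 6.2, whose microglial scores were -0.01 and 0.04. Over the 8 arrays, as a description, the r of Cnr2 was 0.45 with the microglial score and -0.15 with the leukocyte score.

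**Figure D2:**
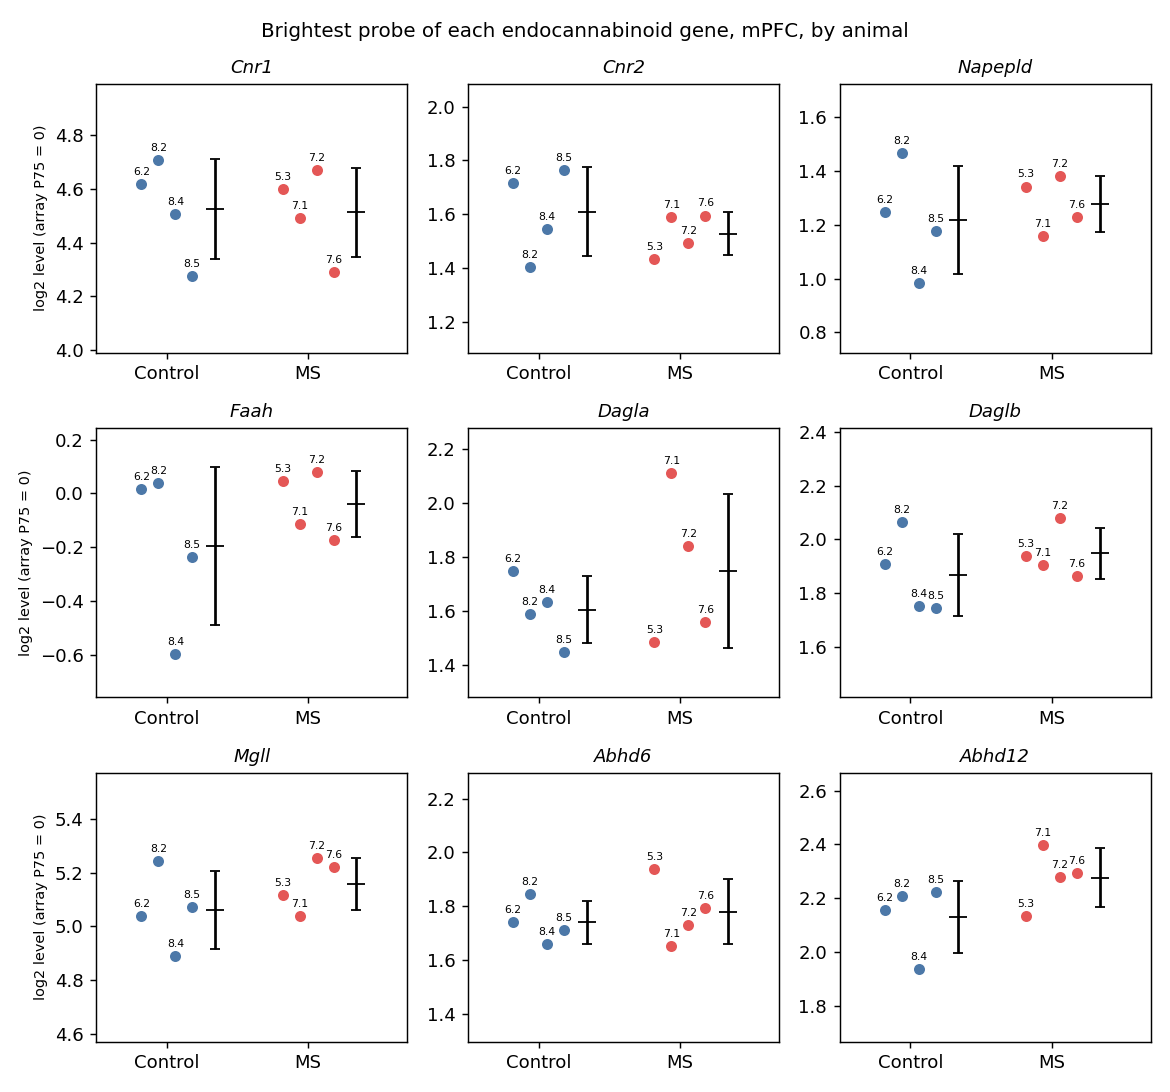
Log2 level relative to the 75th percentile of the array (y axis, each panel spanning 1 log2 unit) of the brightest probe of each gene in 4 control (blue) and 4 MS (red) animals, each labelled with its animal number. The black bar beside each group gives the mean ± SD. The groups overlap in all 9 panels, and Control 8.4 is the lowest animal for Napepld, Faah, Mgll and Abhd12.

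On the anandamide side, both the synthetic and the degrading enzyme were lowest in Control 8.4. Napepld, which encodes the phospholipase D that releases anandamide (chr5:21168862-21168921, minus strand), had levels of 1.25, 1.47, 0.98 and 1.18 in control animals against 1.34, 1.16, 1.38 and 1.23 in MS mice. The MS values lay within the control range. The fold change was 0.06 log2 (95% interval -0.20 to 0.31) and turned to -0.02 without Control 8.4.

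Faah encodes the hydrolase that ends the action of anandamide. At its brightest probe (A_52_P223704, chr4:115669624-115669683, minus strand) the levels were 0.01, 0.04, -0.60 and -0.24 in control animals against 0.05, -0.11, 0.08 and -0.17 in MS mice. Control 8.4 lay 0.36 log2 below the next lowest animal. The mean was -0.19 ± 0.29 for controls and -0.04 ± 0.12 for the MS group (SD, n = 4 each). MS exceeded control by 0.15 log2 (95% interval -0.18 to 0.49), or by 0.02 without Control 8.4. The second Faah probe (A_55_P2125059, transcript ENSMUST00000125761, 27.9 kb away) was dim, at 15.6 to 24.3 signal units. Its log2 fold change was 0.09 (95% interval -0.26 to 0.43), and its lowest animal was Control 8.5.

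The diacylglycerol lipases make 2-AG, and Dagla encodes the form that provides most of it in the adult brain. Dagla (chr19:10319766-10319825, minus strand) had levels of 1.75, 1.59, 1.63 and 1.45 in control animals against 1.48, 2.11, 1.84 and 1.56 in MS mice. The 2 highest animals, MS 7.1 and MS 7.2, were both of the MS group, but each of the other 2 MS mice lay below 3 of the controls. The means were 1.60 ± 0.12 and 1.75 ± 0.29 (SD, n = 4 each). The log2 fold change of 0.14 had a 95% interval from -0.18 to 0.47, and it was 0.02 without MS 7.1 and 0.15 without Control 8.4.

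Daglb, the related lipase of microglia and other cells (chr5:144264931-144264990, plus strand), is spotted 10 times on each array, so the error between spots is known for it. The SD between its 10 spots on an array was 0.028 to 0.050 log2, and the SD between animals was 0.15 in controls and 0.094 in MS mice. Its levels were 1.91, 2.06, 1.75 and 1.75 in control animals against 1.94, 1.91, 2.08 and 1.86 in MS mice. The spread between spots leaves out the error of extraction, labelling and hybridisation. The difference between the groups was 0.08 log2 (95% interval -0.14 to 0.30), smaller than the spread between controls. Without Control 8.4 it was 0.04.

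Mgll encodes monoacylglycerol lipase, which breaks down most of the 2-AG in the brain, and one of its probes gave the largest difference among the members, without passing the test. At the brightest probe (A_55_P2063316) the levels were 5.04, 5.24, 4.89 and 5.07 in control animals against 5.12, 5.04, 5.25 and 5.22 in MS mice. The means were 5.06 ± 0.14 and 5.16 ± 0.098 (SD, n = 4 each), and the log2 fold change was 0.10 (95% interval -0.12 to 0.31), or 0.040 without Control 8.4. In the log2 table of the authors it was 0.0083. The second probe for the same transcript, 2.32 kb upstream (A_55_P2114863), gave 3.22, 3.44, 2.77 and 3.18 in control animals against 3.32, 3.38, 3.44 and 3.22 in MS mice. All MS values lay within the control range, and Control 8.4 was the lowest animal by 0.40 log2. Here the log2 fold change was 0.19 (95% interval -0.12 to 0.50), and 0.06 without Control 8.4.

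The Mgll probe for transcript NM_001166250 (A_55_P2063312) had the largest spread of the tested member probes, 1.21 log2 between its lowest and highest animal. Its levels were 2.23, 2.13, 1.54 and 2.17 in control animals against 1.94, 2.75, 2.39 and 2.40 in MS mice. Of the MS mice, 3 lay above every control, and MS 5.3 lay below 3 of the controls. The log2 fold change was 0.35 (95% interval -0.11 to 0.81), a ratio of 1.28 (interval 0.928 to 1.75), with an unadjusted limma p of 0.117 and an adjusted p of 0.9996. It was 0.19 without Control 8.4, and 0.15 and 0.56 in the first and the other slide row. The level at the brightest probe minus the level at this one ranged from 2.28 in MS 7.1 to 3.35 in Control 8.4, so the probes did not move in step. The remaining Mgll probe (A_55_P2063311, chr6:88716266-88716325, 1.63 kb from it and for the same transcript) was well above background in 2 controls and 3 MS mice, at 7.96 to 18.3 signal units, and was not tested.

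**Figure D3:**
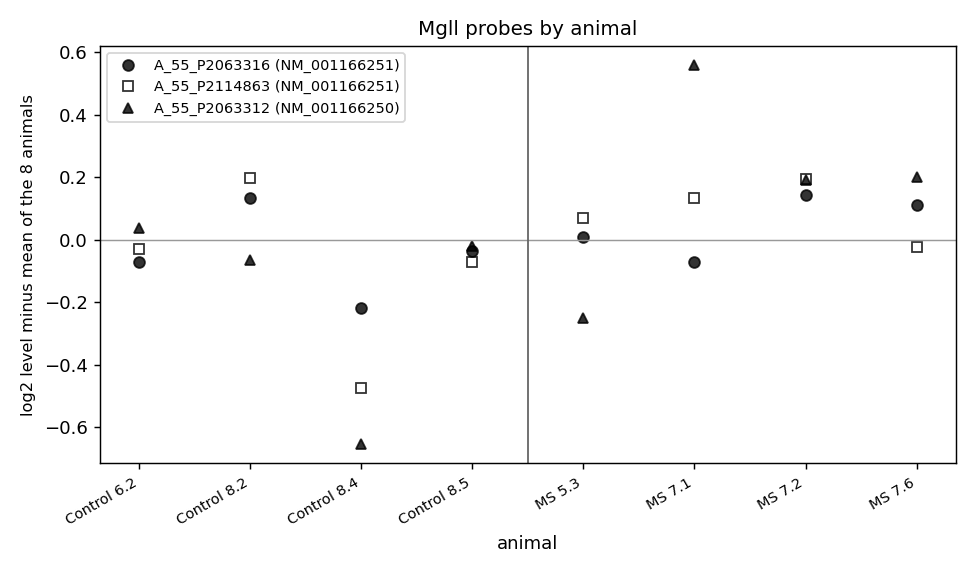
Levels of the 3 tested Mgll probes in each animal as log2 deviations from the mean of the 8 animals (y axis), with controls left and MS mice right of the vertical line. All probes are lowest in Control 8.4, and A_55_P2063312 stands 0.56 above its mean in MS 7.1, where the brightest probe lies 0.07 below its own.

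Abhd6 and Abhd12 encode hydrolases that take a smaller part of 2-AG breakdown, Abhd6 on the inner face of the postsynaptic membrane and Abhd12, which is also a lysophosphatidylserine lipase, on the outer side. At the brightest Abhd6 probe (A_55_P1984675, chr14:8889003-8889062, plus strand) the levels were 1.74, 1.85, 1.66 and 1.71 in control animals against 1.94, 1.65, 1.73 and 1.80 in MS mice. This was the tightest of the tested member probes, and its log2 fold change was 0.04 (95% interval -0.16 to 0.24), or 0.013 without Control 8.4. The second Abhd6 probe, 0.887 kb upstream, gave -0.0022 (interval -0.33 to 0.32), or -0.088 without Control 8.4.

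Abhd12 (chr2:150660016-150660075, minus strand) had levels of 2.16, 2.21, 1.94 and 2.22 in control animals against 2.13, 2.40, 2.28 and 2.29 in MS mice. Of the MS mice, 3 lay above every control, while MS 5.3 lay below 3 of them. The log2 fold change was 0.15 (95% interval -0.07 to 0.36), a ratio of 1.11, with an unadjusted limma p of 0.162. Without Control 8.4 it was 0.08. Over the brightest probes, the direction was the same in both slide rows for 7 of the 9 genes, with Cnr1 and Cnr2 as the exceptions. The share of all tested probes with the same direction in both rows was not worked out, so this count is not read as a trait of these genes.

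Some of the 9 genes varied together across the animals, irrespective of group, and others did not. In Control 8.4 all 9 lay below their 8-animal mean, by a median of 0.16 log2, and in Control 8.5 7 of them did. In Control 8.2 and MS 7.2, 7 of the 9 lay above it, with median deviations of 0.13 and 0.14. The share of all tested probes below or above their mean in these animals was not worked out. The counts are therefore not read as a trait of these genes. As a description over the 8 arrays, which share a slide and a scaling, Napepld had a Pearson r of 0.89 with Faah, 0.87 with Daglb and 0.87 with Mgll (Spearman rho 0.86, 0.86 and 0.79). Without Control 8.4 these r values were 0.78, 0.84 and 0.73. Other pairs had a negative r, with -0.11 for Napepld and Dagla, -0.16 for Cnr1 and Abhd12 and -0.56 for Dagla and Abhd6. The r of Faah with Mgll was 0.73 over all animals and 0.34 without Control 8.4. How such values compare with those of other genes on the array was not tested. The r of Cnr1 with Faah was 0.52 over all animals and 0.96 without Control 8.4, in which Faah lay 0.48 below its own mean and Cnr1 0.01 below its own. Cnr2 ran opposite to some of the members, with an r of -0.64 with Cnr1 and -0.65 with Daglb. Its r was -0.28 with Faah, 0.003 with Dagla and 0.10 with Abhd12.

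**Figure D4:**
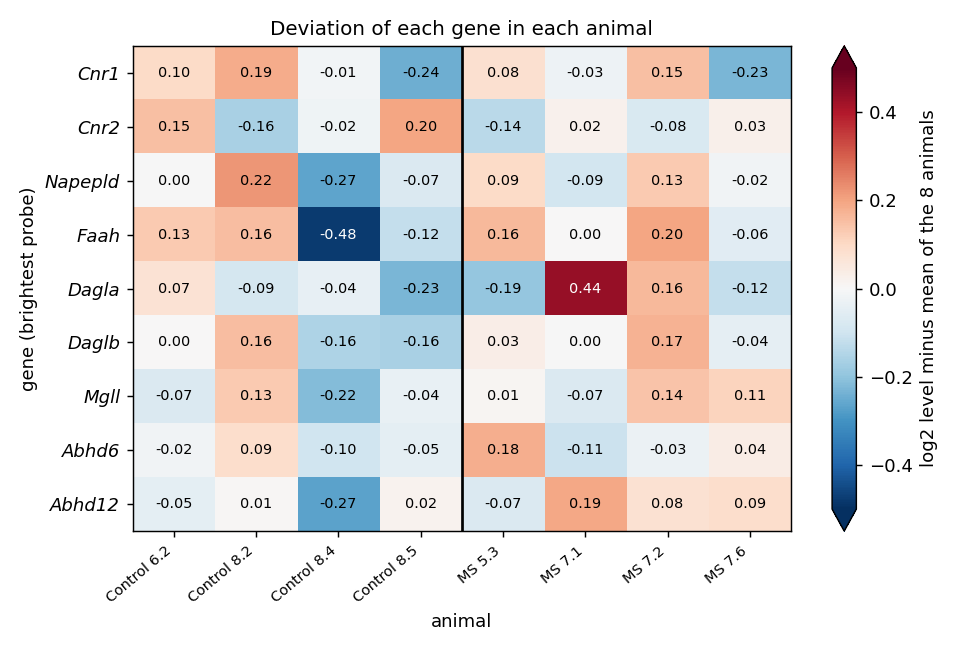
Log2 deviation of the brightest probe of each gene (rows) from its mean over the 8 animals, by animal (columns), with controls left and MS mice right of the line and the value printed in each cell. The column of Control 8.4 is below 0 for all 9 genes, down to -0.48 for Faah, and the highest cell is Dagla in MS 7.1 at 0.44.

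The animals with low Faah were those whose tissue carried more RNA of olfactory bulb markers. The 3 lowest Faah levels were in Control 8.4, Control 8.5 and MS 7.6, the same animals that had the 3 highest bulb scores. The lowest Faah level was also that of the animal with the lowest cortical excitatory neuron score and the highest striatal score. The astrocyte score (0.25) and oligodendrocyte score (0.32) of Control 8.4 were the highest as well. Over the 8 arrays the r of Faah was 0.95 with the cortical excitatory neuron score and -0.94 with the bulb score. It was -0.89 with the astrocyte score, -0.88 with the striatal score and -0.83 with the oligodendrocyte score. These r values were not worked out without Control 8.4. Faah had the most negative bulb r of the members, followed by Daglb (-0.78), Napepld (-0.78) and Cnr1 (-0.64). This r was -0.50 for Mgll, -0.50 for Abhd12, -0.43 for Abhd6, -0.33 for Dagla and 0.29 for Cnr2. Cnr1 was lowest in Control 8.5 and MS 7.6 too, but in Control 8.4, with the highest bulb score, its level of 4.50 was near the 8-animal mean of 4.52. The score of the CCK-type interneuron markers, 8 of 8 tested, differed by less, from -0.17 in Control 8.4 to 0.12 in Control 6.2. By value, 4 of these markers were higher and 4 lower in MS mice. Sncg (-0.24) and Adarb2 (-0.34) had unadjusted limma p values of 0.031 and 0.038, beside 2.39% of all tested probes under 0.05. Their adjusted p was 0.9996, and their values without Control 8.4 were -0.24 and -0.30. The part of these marker RNAs in the levels of the endocannabinoid genes was not tested.

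**Figure D5:**
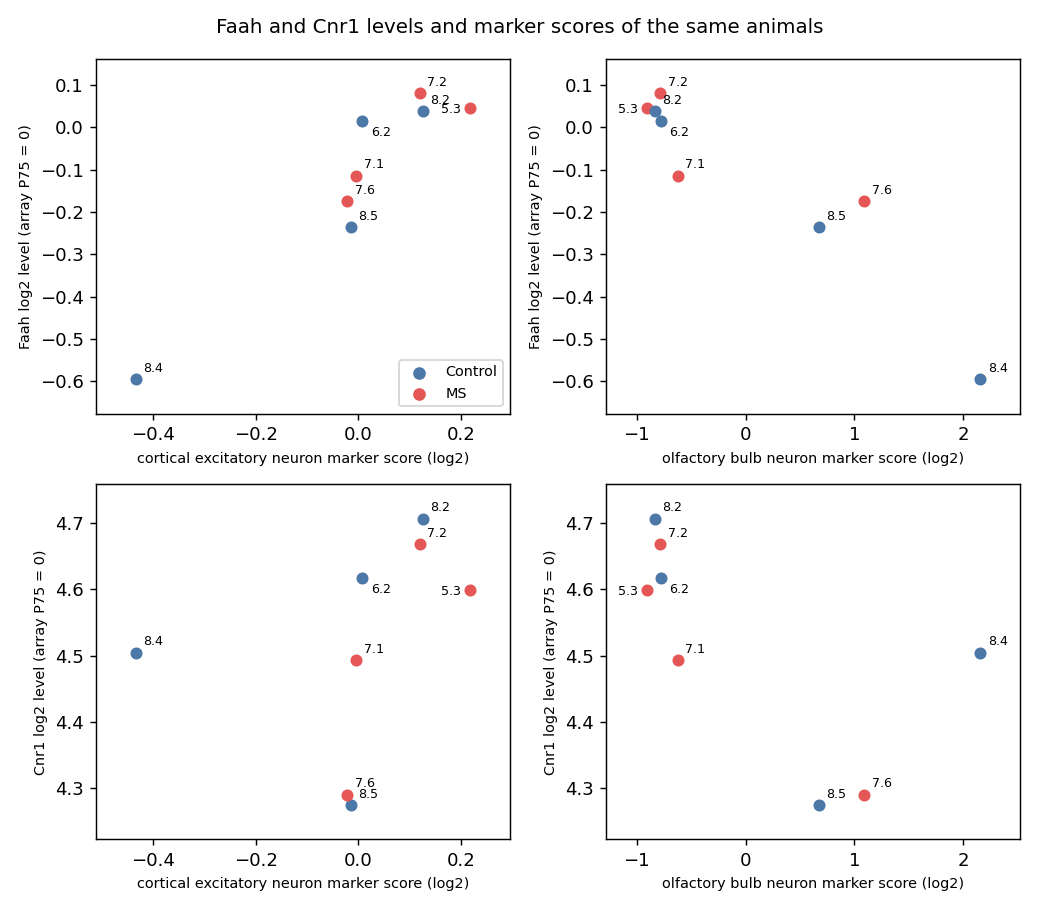
Levels of Faah (top) and Cnr1 (bottom) at their brightest probes (y axes, log2 relative to the array's 75th percentile) against the mean log2 deviation of cortical excitatory neuron markers (left) and olfactory bulb neuron markers (right), 1 point per animal. Control 8.4 lies at the low end for Faah, at -0.60, and in mid-range for Cnr1, at 4.50.

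The 5 genes outside the set whose brightest tested probe followed Cnr1 most closely over the 8 arrays, of 16143 genes ranked, were Fam161b (r = 0.99), Wdr62 (0.98), Stx2 (0.97), Gpm6a (0.97) and Dach1 (0.97). Their Spearman rho values ran from 0.88 to 0.98, and r stayed between 0.97 and 0.99 without Control 8.4. Gpm6a encodes a neuronal membrane glycoprotein, Stx2 a syntaxin and Dach1 a transcription cofactor. With 8 points and this many genes, high values of r are bound to occur. Their own log2 fold changes lay between -0.05 and 0.003, and each varied by 0.23 to 0.45 log2 between its lowest and highest animal.

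Other genes of endocannabinoid signalling were followed in 6 lists of 58 genes, of which 49 were tested. At the brightest probe of each gene, 29 were higher and 20 lower in MS mice by value, 0 passed the adjusted threshold in limma, and 0 had an unadjusted p under 0.05. Their median log2 fold change was 0.02. The probes of Gpr55, Gpr18, Gpr119, Trpv1 and Trpa1, receptors and channels that cannabinoids can also act on, were not well above background in all animals of either group, and neither were those of Hrasls5, Alox15, Ces1d and Plcb2.

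Among the receptors and phospholipases that drive 2-AG synthesis, 8 of 13 tested genes were higher and 5 lower. The highest were Chrm3, a muscarinic receptor (0.31, standard error 0.20), and Gnaq, the G protein that couples such receptors to phospholipase C (0.23), and the lowest value was that of the scaffold gene Homer2 (-0.11). Without Control 8.4 the values of Chrm3, Gnaq and Homer2 were 0.15, 0.10 and -0.066. None of these genes passed the test (adjusted p = 0.9996 in limma).

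Among partners and transducers of CB1, 8 of 11 were higher and 3 lower, with Cnrip1, which encodes a protein that binds the tail of CB1, at 0.17 and Grk2, a receptor kinase, at 0.13, and with Gnai2 and Gnai1, inhibitory G proteins, at -0.03 and -0.02. Without Control 8.4 the values were 0.11 for Cnrip1, 0.0091 for Grk2, -0.11 for Gnai2 and 0.0087 for Gnai1. Of the intracellular lipid carriers, 4 of 5 were higher, led by Scp2 (0.14) and Hspa8 (0.10), and the lowest were Fabp7 (-0.26, standard error 0.44), a fatty acid binding protein of astrocytes and progenitors, and Fabp5 (0.05). Without Control 8.4, Fabp7 turned to 0.22, Hspa8 was 0.022 and Fabp5 was 0.021.

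In the side routes of anandamide synthesis, 4 of 7 tested genes were higher, with the phosphodiesterase gene Gde1 at 0.16 and Ptpn22 at 0.15, and with Gdpd3 at -0.06 and Gdpd1 at -0.04. Without Control 8.4, Gdpd3 turned to 0.071 and Gde1 was 0.098. Of the other hydrolases and oxygenases, 2 of 6 were higher, Ptgs2, which encodes cyclooxygenase-2, at 0.11 (-0.04 without Control 8.4) and Ppt1 at 0.09 (0.040 without it), and the lowest were Alox12 at -0.27 (0.11 without Control 8.4) and Pnpla2 at -0.16. Of the other cannabinoid-responsive receptors, 3 of 7 were higher, with Trpv2 at 0.04 (-0.062 without Control 8.4) and Gpr3 at 0.005, and the lowest were Gpr6, a receptor rich in the striatum, at -0.19 (0.015 without Control 8.4) and Trpv4 at -0.08 (-0.031 without it).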

How the data were processed

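Groups and animal numbers came from the labels of the samples. The authors extracted spot intensities with Agilent Feature Extraction 10.10.1.1, and the deposited processed intensity was background-subtracted and not normalised between arrays. Per the file headers, probe coordinates are on mm9, and their design number differs from the one in the methods of the study. A deposited table of the series gives log2 values after normalisation by the authors, with columns matched to arrays and rows to probes by name, a common column median of about 8.53 and a correlation of at least 0.994 with each array's own levels. It served as an alternative, and the selection of its rows is not stated in the sources read.

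The log2 processed intensity minus the array's 75th percentile over non-control spots was used. Spots flagged as outliers were dropped, spots of a probe were averaged, and the test took probes that exceeded background well, in at least 50% of their spots, on all 4 arrays of a group. MS and control were compared with limma 3.58.1 (lmFit, eBayes, two-sided, no covariate) in R 4.3.3 with Benjamini-Hochberg adjustment, after the fit had been tested on simulated data. Mice that share the number before the point in their label (3 controls, 3 MS mice) may be related, and the p values ignore this. The number of arrays limits the precision. Per-gene values use the probe with the highest mean level. A marker score is the mean log2 deviation of a list's genes from the 8-animal mean. Symbols came from RefSeq (GRCm38.p6) by accession (27235 probes) or name (3581), and otherwise from the files. The members and lists were chosen with earlier results of these data known. All members are named, with the 2 largest and 2 smallest fold changes of each list and the 5 genes most like Cnr1, apart from 1 list gene that is not reported here. Alternatives were the background correction, normalisation, filter, outlier spots, slide row, animal number, array weights, probe choice and leaving out each animal.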

Additional observations from a re-analysis of the deposited data

Results flagged for a closer look

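Among the 28 sets of 4 values formed by the 14 tested probes and both groups, 1 held a value that lay far from the other 3. At the Mgll probe A_55_P2063312, Control 8.4 had a level of 1.54, where the other controls lay between 2.13 and 2.23, and the gap was 0.855 of the range of the group, above Dixon's 95% critical value for 4 samples. Chance flags about 1 set in 20.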

How the results depend on the processing

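Under 17 alternatives, 0 member probes and 0 probes of the other pathway genes passed the adjusted threshold, as in the reported comparison, and the smallest adjusted p over all probes ranged from 0.393 to 0.99996. The count of member probes with an unadjusted p under 0.05, 0 as reported, was 2 with the number before the point as a random block (Mgll A_55_P2063312 and Abhd12, beside 11.3% of all probes, with an estimated correlation of -0.22) and 0 to 2 when 1 animal was left out (2 without MS 5.3, Mgll A_55_P2063312 and Cnr1 A_55_P2138326, beside 3.78% of all probes). The cause was not tested. Of the 9 log2 fold changes at the brightest probes, 6 kept their sign under 18 alternatives. Cnr1, -0.013 as reported, was 0.024 with array weights, 0.017 without Control 6.2, 0.047 without Control 8.2 and 0.061 without MS 7.6, and ran from -0.097 to 0.061 over the animals left out. Napepld was -0.019 without Control 8.4 (range -0.019 to 0.14) and Abhd6 -0.014 without MS 5.3 (range -0.014 to 0.082). Control 8.4 had the lowest array weight, 0.314. The median shift over all probes stayed within 0.03 log2. No paired analysis was possible because the groups share no animal numbers. Signal over background limits the dim probes A_55_P2125059 of Faah and A_55_P2063311 of Mgll.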
